A study of Mus musculus with 24 samples.

Results

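Normal C57BL/6 (C57) mouse skin 14 days after grafting (14 dpg) was compared with intact C57 ear skin. The members were chosen by library title, 3 grafts (replicates 1, 2 and 3) and 3 ears (each with its own mouse number), which made 6 of the 24 libraries of the series. The grafts were ear skin of C57BL/6 donors placed on C57BL/6 recipients and collected whole. The ears came from C57BL/6 mice of 8 weeks. No mouse of these 6 libraries carried a transgene or a targeted allele by its label. The labels did not give the age of the grafted animals or the place of the graft on the recipient. A further 3 C57 grafts collected at 28 dpg served to follow genes in time. E7 skin (K14E7, the human papillomavirus 16 E7 oncogene behind the keratin 14 promoter) grafted for 14 days onto C57BL/6 recipients served with E7 ear as a second pair. The E7 ears also came from mice of 8 weeks. Each group of the series had 3 libraries. The statistical fit also held E7 grafts at 28 dpg and CD1dKOxE7 grafts (CD1d knockout crossed with E7, by title) at 14 and 28 dpg.

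RNA of whole tissue was counted per gene, and levels are given as CPM, a gene's share of the scaled library total. All grafts of C57 and E7 skin were sequenced on flow cell C374UACXX, lane 1, and all ears on flow cell C1RWBACXX, lane 2, so graft against ear and flow cell against flow cell cannot be told apart in these data. The C57 grafts of 14 and 28 dpg shared a flow cell and a lane. Totals were 6787410 to 8736172 counts in the 14 dpg grafts and 11491770 to 13814448 counts in the ears, so that 3 counts in a library equalled 0.358 to 0.438 CPM in the grafts and 0.203 to 0.245 CPM in the ears. Mitochondrial genes held 1.495 to 1.859% of the counts in the grafts and 2.531 to 3.386% in the ears. Across genes, libraries correlated at 0.979 to 0.985 among the grafts, 0.991 to 0.993 among the ears and 0.859 to 0.870 between grafts and ears. The first principal component held 88.7% of the variance and separated grafts from ears, and the second, with 4.62%, set graft replicate 2 apart from replicate 3. The keratinocyte genes Krt5, Krt14 and Krt10 and the dermal genes Col1a1 and Col3a1 were read at 1330 CPM or more in each of the 6 libraries labelled as skin. In whole tissue, fewer cells of a type and less RNA per cell cannot be told apart.

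A skin graft is cut from its blood and nerve supply and heals at its edges and bed while its epidermis, follicles and dermis re-form. Wounded keratinocytes switch on stress keratins, fibroblasts lay down collagen and become contractile, and neutrophils and macrophages enter the tissue. Hair follicles, which in adult skin rest in telogen, pass in anagen through a growth phase in which inner root sheath and hair shaft keratins are made. Hox genes keep in adult skin cells a record of position along the body axis.

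Of 16612 genes tested, 8735 passed an adjusted p of 0.05 in edgeR (52.6%), 5077 of them higher in the grafts (30.6%) and 3658 lower (22.0%). At least 2-fold changes were called for 3130 genes (18.8%), 1963 higher and 1167 lower. The median log2 fold change over all genes was 0.063. The 30.6% higher and 22.0% lower are the shares against which the counts of each list stand. The share of calls that were higher was 58.1%, against 48.0% with no filter on low counts and 48.8% with upper quartile scaling, so the balance of directions over all genes depended on these settings. In the text, "rose" and "fell" are used for genes past this threshold, and fold changes are fitted values, graft over ear, on the log2 scale ± SE.

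**Figure D1:**
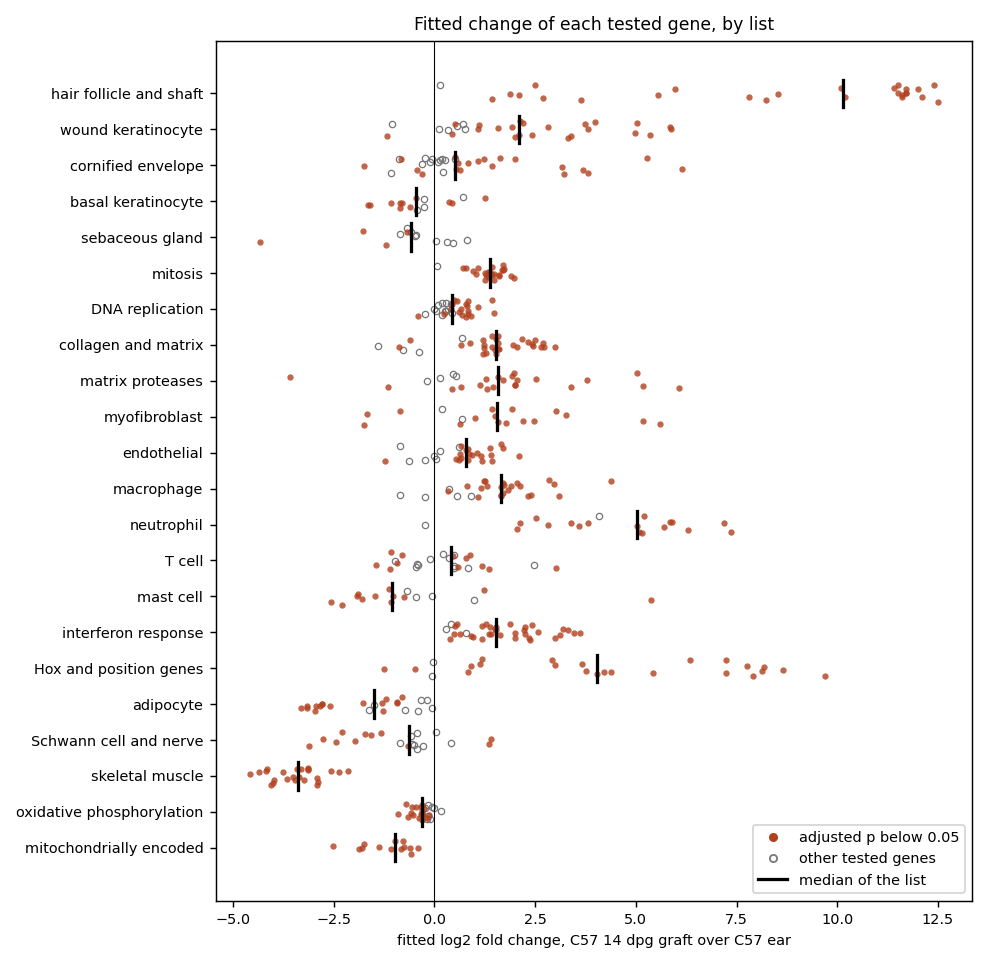
Fitted log2 fold change (x axis, 14 dpg graft over ear, n = 3 each) of every tested gene of 22 gene lists (rows). Filled points passed an adjusted p of 0.05, open points did not, and the black bar is the median of the list, which reached 10.2 in hair follicle genes and -3.39 in skeletal muscle genes.

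Genes of the growing hair follicle stood far above ear skin in all 3 grafts. Krt71 (Entrez 56735, chromosome 15, 101733949 to 101743097), a type II keratin of the inner root sheath, was read at 3040, 3640 and 2010 CPM in the grafts, against 1.14, 0.225 and 0.271 CPM in the ears. Its fitted log2 fold change was 12.40 ± 1.00 (adjusted p = 3.32e-08). Its type I partners of the root sheath Krt25 (Entrez 70810, chromosome 11) and Krt27 reached 1820 ± 511 and 1100 ± 293 CPM in grafts, against 0.556 ± 0.725 and 0.367 ± 0.199 CPM in ear (SD, n = 3 each). Krt73, another root sheath keratin, stood at 423, 561 and 316 CPM in grafts and at 0.245, 0 and 0.135 CPM in ears. No graft overlapped an ear for any of these genes, and graft replicate 3 was the lowest of the 3 grafts in each.

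Keratins of the hair cortex and cuticle moved with them. Krt81 was read at 710, 653 and 430 CPM in the grafts, against 0.327, 0 and 0.0677 CPM in the ears (log2 fold change 12.08 ± 0.97, adjusted p = 3.14e-08). Krt33a, Krt34 and Krt35 averaged 556 ± 131, 369 ± 107 and 329 ± 81.2 CPM in grafts and 0.159 ± 0.219, 0.109 ± 0.189 and 0.0996 ± 0.0874 CPM in ear. Krtap8-1, a keratin-associated protein that packs the shaft, averaged 583 ± 182 CPM in grafts and 0.132 ± 0.124 CPM in ear. Krt71, Krt81, Krtap8-1, Krt33a, Krt25, Krt34, Krt73 and Krt35 were the 8 largest rises by the naming rule, with fitted log2 fold changes between 11.51 and 12.40. Krt33a and Krt33b, and Krt81, Krt83 and Krt86, are near copies of each other, and the labels do not tell how their reads were divided. Trichohyalin (Tchh), which stiffens the inner root sheath, was read at 4930, 5590 and 2760 CPM in grafts, against 13.0, 12.6 and 10.2 CPM in ears.

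Of 27 follicle genes listed 26 were tested, and 25 rose and none fell, with a median log2 fold change of 10.2, against 30.6% of all genes higher and a median of 0.063. Many of the hair keratins had few counts over the 3 ears, such as 2 for Krt72 and Krt33b and 5 for Krt81. They passed the filter on low counts through groups other than C57 ear, so a fall could not be called for them. The count of rises is limited by this. The regulators of the list changed less than the keratins: Hoxc13, needed for hair keratin expression, averaged 64.4 ± 15.1 CPM in grafts and 5.14 ± 0.696 CPM in ear (log2 fold change 3.65 ± 0.36, adjusted p = 2.15e-07), and Foxn1, the nude gene, 45.8 CPM in grafts and 17.2 CPM in ear. Lef1, the nuclear partner of beta-catenin, was read at 19.2, 29.5 and 15.5 CPM in grafts, against 3.93, 3.38 and 2.64 CPM in ears. Shh, the signal of the follicle matrix, was read at 4.93, 14.3 and 2.39 CPM in grafts, against 0, 0.0751 and 0.203 CPM in ears. The stem cell marker Cd34 alone of the 26 did not pass, at 234 CPM in grafts and 211 CPM in ear (adjusted p = 0.536).

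**Figure D2:**
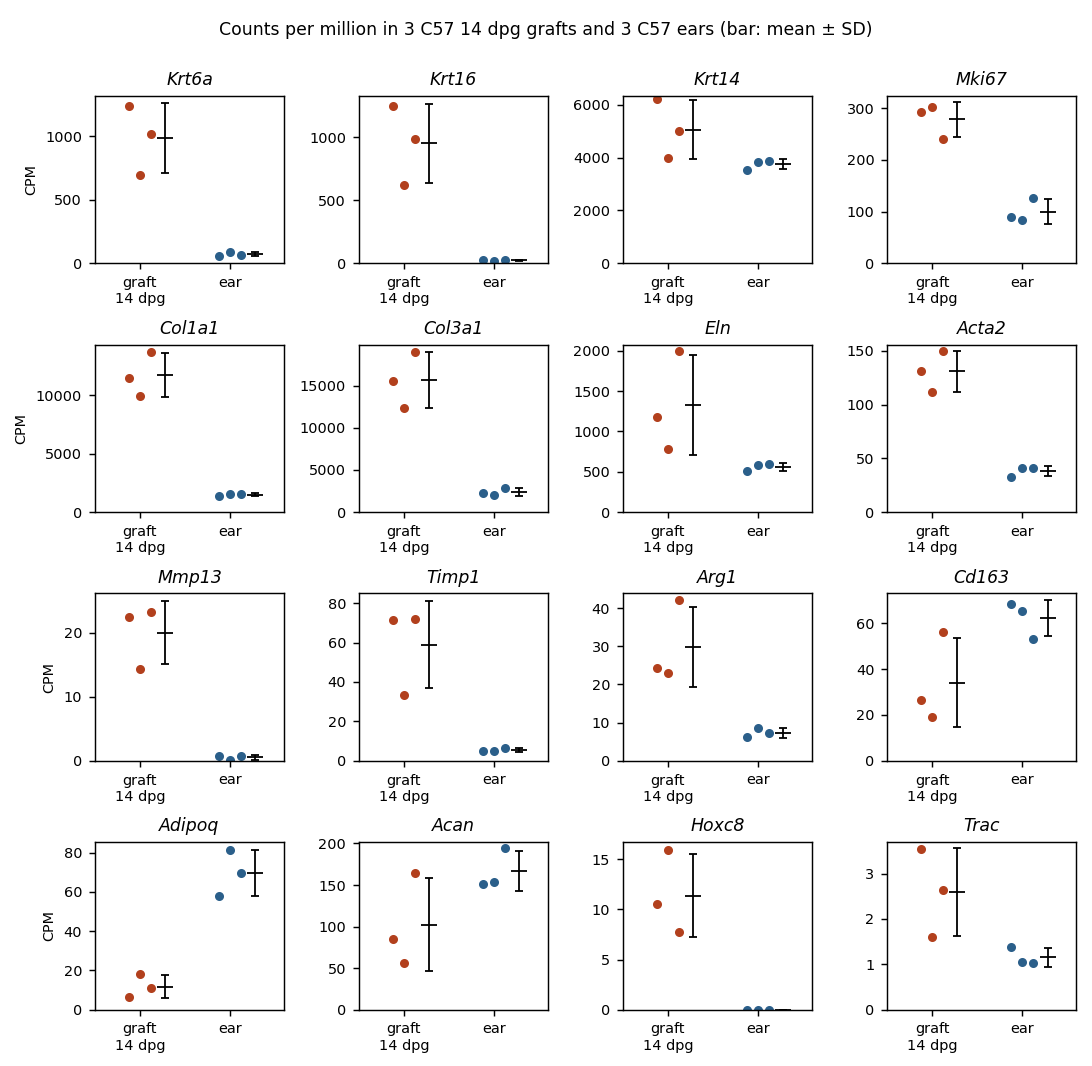
CPM of 16 genes in each library, 3 C57 grafts at 14 dpg (left) and 3 C57 ears (right), with mean ± SD as bars; each axis starts at 0. The grafts lie above the ears in all genes but Cd163, Adipoq and Acan, and grafts and ears overlap in Cd163 and Acan.

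Cell division genes were higher in the grafts. Mki67, present in cycling cells, was read at 293, 302 and 240 CPM in grafts and at 89.4, 83.0 and 127 CPM in ears (log2 fold change 1.48 ± 0.17, adjusted p = 6.10e-07). Of 25 mitosis genes 24 rose and none fell, with a median of 1.39. Birc5, which encodes survivin, stood at 26.8, 27.5 and 26.7 CPM in grafts, against 8.42, 10.7 and 12.7 CPM in ears, and the spindle checkpoint gene Bub1b at 41.8, 42.1 and 37.5 CPM, against 15.9, 14.9 and 19.3 CPM. The one mitosis gene that did not pass was Ttk, at 20.4 CPM in grafts and 19.6 CPM in ear. DNA replication genes changed less: 18 of 31 rose, 1 fell and the median was 0.444. The origin-firing factor Mcm10 rose 2.80-fold to 11.9 ± 1.44 CPM in grafts, against 4.20 ± 0.711 CPM in ear, and the thymidylate synthase gene Tyms rose 1.74-fold. The clamp loader subunit Rfc3 fell to 14.5 ± 2.12 CPM in grafts, against 19.1 ± 1.56 CPM in ear.

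Promoters of these lists were read to show what the genes that rose have in common, from RefSeq windows of 300 bases (250 before the start, 50 after; GRCm38.p6), 1 per gene. The letters searched on either strand were those of E2F sites, TTTCCCGC, TTTCGCGC, TTTGCCGC and TTTGGCGC, and of the cell cycle homology region (CHR), TTTGAA, which is also contained in the LEF/TCF motif CTTTGAA. An E2F sequence was present in 5 of 16 promoters (31.2%) of replication genes that rose, in 1 of 19 (5.26%) of mitosis genes and in 3.68% of the 12516 promoters of all tested genes. TTTGAA was present in 13 of 19 promoters (68.4%) of mitosis genes, in 3 of 16 (18.8%) of replication genes and in 12.8% of all. It was also present in 9 of 16 promoters (56.2%) of follicle genes that rose. Follicle promoters were poorer in G and C (median 45.3%, against 60% over all), and among all promoters with under 50% G and C TTTGAA was present in 28.7%. These are matches of letters, with no test and no evidence of binding. Below are, for each list, the pair with the smallest adjusted p among the genes whose promoter held the sequence, with matches in capitals, for Mcm5 (chr8:75109259-75109558, plus strand) and Mcm3 (chr1:20820263-20820562, minus strand), subunits of the replicative helicase, Bub1b (chr2:118597961-118598260, plus strand) and the spindle motor gene Kif11 (chr19:37376132-37376431, plus strand), and the hair keratin gene Krt33b (chr11:100029819-100030118, minus strand) and Tchh (chr3:93442080-93442379, plus strand).
Mcm5: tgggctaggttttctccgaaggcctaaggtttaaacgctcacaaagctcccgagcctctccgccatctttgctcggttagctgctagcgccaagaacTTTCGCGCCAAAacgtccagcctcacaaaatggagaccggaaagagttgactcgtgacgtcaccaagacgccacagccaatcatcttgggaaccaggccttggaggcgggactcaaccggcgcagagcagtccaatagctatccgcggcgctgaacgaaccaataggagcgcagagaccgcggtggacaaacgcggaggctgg
Mcm3: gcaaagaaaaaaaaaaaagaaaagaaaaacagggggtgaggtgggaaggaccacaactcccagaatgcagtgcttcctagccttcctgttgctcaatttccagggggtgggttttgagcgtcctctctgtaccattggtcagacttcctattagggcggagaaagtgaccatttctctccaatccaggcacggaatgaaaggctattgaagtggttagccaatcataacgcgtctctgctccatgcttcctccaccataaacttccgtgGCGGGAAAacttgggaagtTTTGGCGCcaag
Bub1b: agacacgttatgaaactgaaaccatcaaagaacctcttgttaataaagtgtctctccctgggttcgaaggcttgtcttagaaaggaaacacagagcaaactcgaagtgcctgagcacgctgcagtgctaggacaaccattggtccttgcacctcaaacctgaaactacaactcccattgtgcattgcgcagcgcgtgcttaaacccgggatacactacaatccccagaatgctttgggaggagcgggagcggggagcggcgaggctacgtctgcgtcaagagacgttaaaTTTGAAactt
Kif11: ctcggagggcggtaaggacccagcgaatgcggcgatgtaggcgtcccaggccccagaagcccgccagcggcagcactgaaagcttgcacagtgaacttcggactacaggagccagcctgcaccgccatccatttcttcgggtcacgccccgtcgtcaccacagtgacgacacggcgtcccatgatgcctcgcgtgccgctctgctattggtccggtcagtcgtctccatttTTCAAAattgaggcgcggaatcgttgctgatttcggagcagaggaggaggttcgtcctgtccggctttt
Krt33b: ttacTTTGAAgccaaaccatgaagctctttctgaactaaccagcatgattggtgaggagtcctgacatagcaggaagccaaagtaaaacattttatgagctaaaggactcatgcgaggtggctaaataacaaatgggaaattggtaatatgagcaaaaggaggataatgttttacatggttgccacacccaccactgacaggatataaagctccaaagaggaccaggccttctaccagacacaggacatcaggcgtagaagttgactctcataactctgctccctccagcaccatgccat
Tchh: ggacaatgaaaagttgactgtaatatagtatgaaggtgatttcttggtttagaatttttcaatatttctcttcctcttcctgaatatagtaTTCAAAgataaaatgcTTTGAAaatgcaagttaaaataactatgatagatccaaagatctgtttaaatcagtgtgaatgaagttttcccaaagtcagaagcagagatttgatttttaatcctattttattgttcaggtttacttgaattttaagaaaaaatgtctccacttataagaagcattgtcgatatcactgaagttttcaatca
The 2 E2F matches of Mcm5 overlap on opposite strands, those of Mcm3 lie after the start, and the matches of Krt33b and Tchh read CTTTGAA. Mcm5 was read at 55.6, 58.6 and 46.9 CPM in grafts and at 23.2, 32.3 and 30.3 CPM in ears, and Kif11 at 55.1, 53.6 and 46.1 CPM in grafts and at 13.7, 13.3 and 20.4 CPM in ears. Krt33b had 8721 counts in the grafts and 2 in the ears together, a ratio of 7600 per CPM (95% counting interval 2100 to 62700, exact binomial).

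Genes of wounded keratinocytes, some of which hair follicles also express, were higher in the grafts. Krt16 (Entrez 16666, chromosome 11), a keratin of activated keratinocytes, was read at 1250, 624 and 984 CPM in grafts, against 22.1, 20.6 and 28 CPM in ears (log2 fold change 5.34 ± 0.41, adjusted p = 1.22e-08). Its partner Krt6a was read at 1240, 693 and 1020 CPM in grafts, against 60, 86.9 and 61.1 CPM in ears (3.82 ± 0.48, adjusted p = 3.95e-06), and Krt6b averaged 1180 ± 493 CPM in grafts and 37.3 ± 0.604 CPM in ear. Graft replicate 2 was the lowest graft for each of the 3. Of 29 wound keratinocyte genes 22 rose and 1 fell (median 2.09); the plasminogen activator gene Plat rose 4.60-fold, and Serpinb2, which inhibits the related activator urokinase, fell to 89.5 ± 15.1 CPM in grafts, against 202 ± 20.2 CPM in ear (adjusted p = 0.0151, and 0.0608 without graft replicate 2).

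The cornified envelope list held 32 genes, 16 of them higher and 4 lower past the threshold, at a median of 0.511; 2 were lower without graft replicate 2 and 7 with a fit of these 6 libraries alone. Filaggrin (Flg, chromosome 3), which bundles keratin in dying keratinocytes, was read at 2650, 2870 and 2360 CPM in grafts, against 173, 206 and 180 CPM in ears (3.82 ± 0.26, adjusted p = 1.89e-09). Involucrin (Ivl) stood at 323, 328 and 318 CPM in grafts and at 80.8, 83.4 and 80.2 CPM in ears (1.99 ± 0.12, adjusted p = 3.49e-10). Krt1, the type II keratin of suprabasal cells, averaged 11000 ± 725 CPM in grafts and 844 ± 103 CPM in ear, while its partner Krt10 did not pass at 16900 ± 1860 CPM in grafts and 11900 ± 1460 CPM in ear (adjusted p = 0.102). Loricrin (Lor) stood at 2360 ± 164 CPM in grafts and 2460 ± 52.5 CPM in ear (adjusted p = 0.834). Of the genes that fell, Lce1m stood at 116 ± 17.7 CPM in grafts, against 390 ± 21.7 CPM in ear, and Flg2 at 505 ± 77.3 CPM in grafts, against 904 ± 61.7 CPM in ear. Envelope genes thus stood higher, lower and near ear level in the same 3 grafts.

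Among 15 basal keratinocyte genes 3 rose and 8 fell (median -0.455; 1 rose with upper quartile scaling, with no filter and without any 1 library except graft replicate 2), and those that fell included genes of the hemidesmosome, which ties basal cells to the basement membrane. Collagen XVII (Col17a1) was read at 869, 683 and 779 CPM in grafts, against 2300, 2270 and 2450 CPM in ears (-1.59 ± 0.14, adjusted p = 3.32e-08). Plectin (Plec) fell to 498 ± 15.3 CPM in grafts, against 904 ± 16.9 CPM in ear, and Krt15, a keratin of quiet basal and bulge cells, to 576 ± 65.4 CPM in grafts, against 1820 ± 135 CPM in ear. P-cadherin (Cdh3), found in basal and hair matrix cells, rose 2.39-fold. Krt14, the main type I keratin of basal cells, was read at 6210, 3980 and 5000 CPM in grafts and at 3530, 3850 and 3880 CPM in ears. Its call (0.43 ± 0.18, adjusted p = 0.0468) was lost in 9 of 12 alternatives (largest adjusted p = 0.407), as was that of the integrin gene Itgb1 (0.36 ± 0.13, adjusted p = 0.0292) in 7 of 12 (0.301). Of 13 tested sebaceous gland genes none rose and 4 fell (median -0.587). The fatty acid desaturase gene Scd1, also on the adipocyte list, fell to 1860 ± 211 CPM in grafts, against 6410 ± 929 CPM in ear. The lipid droplet gene Plin5 had 3 counts in the grafts and 114 in the ears, 21.8-fold lower per CPM (95% counting interval 7.28 to 107). Among the genes that did not pass, Awat2 (9.98 CPM in grafts, 5.71 CPM in ear), Elovl3, Soat1 and Mc5r averaged higher in grafts. Awat1 (23.6 CPM in grafts, 35.6 CPM in ear), Scd3, Dgat2l6, Far2 and Fa2h averaged lower without passing.

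Transcripts of the fibrillar collagens I, III and V were higher in the grafts, read in whole tissue. Col1a1 (Entrez 12842, chromosome 11, 94936224 to 94953042) was read at 11500, 9920 and 13700 CPM in grafts, against 1330, 1510 and 1570 CPM in ears (2.99 ± 0.31, adjusted p = 2.63e-07). Col3a1, abundant in young scar, was read at 15500, 12400 and 19000 CPM in grafts, against 2200, 1980 and 2890 CPM in ears (2.73 ± 0.32, adjusted p = 9.69e-07). Of 33 collagen and matrix genes 27 rose and 2 fell (median 1.52). Tenascin C (Tnc), a matrix protein of wounds, rose 5.41-fold. Decorin (Dcn), which limits collagen fibre width, fell to 1360 ± 445 CPM in grafts, against 2490 ± 163 CPM in ear (adjusted p = 0.0135, and 0.0705 without graft replicate 2), and Thbs1 stood at 338 ± 87.5 CPM in grafts and 514 ± 42.7 CPM in ear (adjusted p = 0.0336), a call lost in 3 of 12 alternatives. Elastin (Eln) was read at 1180, 785 and 2000 CPM in grafts and at 505, 586 and 591 CPM in ears (1.24 ± 0.45, adjusted p = 0.0271). That call was lost without graft replicate 3, without each ear in turn and with no filter (largest adjusted p = 0.209).

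Enzymes that modify and cross-link collagen split by gene. Of 21 listed 17 rose and 4 fell (median 0.997). The prolyl hydroxylase subunit gene P4ha3 was read at 49.9, 25.7 and 35.1 CPM in grafts, against 0.245, 0.300 and 0.542 CPM in ears (6.59 ± 0.51, adjusted p = 1.15e-08), and the collagen chaperone gene Serpinh1 rose 4.09-fold. Adamts14, which trims procollagen, fell to 36.4 ± 3.74 CPM in grafts, against 114 ± 8.51 CPM in ear, and the prolyl 3-hydroxylase gene P3h2 to 15.8 ± 1.68 CPM in grafts, against 34.7 ± 1.62 CPM in ear. Of 25 matrix protease and inhibitor genes 19 rose and 2 fell (median 1.58). Adam12 was read at 119, 122 and 132 CPM in grafts, against 2.62, 3.30 and 4.33 CPM in ears (5.17 ± 0.40, adjusted p = 1.79e-08), and the collagenase gene Mmp13 at 22.4, 14.3 and 23.2 CPM in grafts, against 0.818, 0.150 and 0.812 CPM in ears (5.04 ± 0.66, adjusted p = 4.92e-06). Mmp14, a membrane-bound protease, rose 3.26-fold. The inhibitors of these proteases moved apart. Timp1 stood at 71.4, 33.3 and 72.0 CPM in grafts and at 5.23, 4.96 and 6.63 CPM in ears (3.39 ± 0.36, adjusted p = 4.49e-07). Timp3 fell to 507 ± 72.7 CPM in grafts, against 1130 ± 129 CPM in ear, and Timp4 to 1.44 ± 0.73 CPM in grafts, against 17.7 ± 2.36 CPM in ear.

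Contractile and signalling genes of fibroblasts changed with the matrix. Acta2, the smooth muscle actin of myofibroblasts and vessel walls, was read at 131, 112 and 150 CPM in grafts, against 32.9, 40.8 and 41.0 CPM in ears (1.77 ± 0.25, adjusted p = 1.12e-05). Of 18 myofibroblast genes 13 rose and 3 fell (median 1.55); the collagen-binding integrin gene Itga11 rose 4.55-fold, and the tropomyosin genes Tpm1 and Tpm2, which skeletal muscle also makes, fell 1.81-fold and 3.21-fold. Of 31 genes of TGF-beta, Wnt and BMP signalling 14 rose and 5 fell (median 0.403), and 9 rose without graft replicate 3, while 3 fell without graft replicate 2. The ligand Wnt5a rose 2.76-fold and the secreted Wnt modulator Sfrp2 5.92-fold, while the Wnt target Axin2 fell to 46.6 ± 2.04 CPM in grafts, against 80.3 ± 5.65 CPM in ear, and the ligand Tgfb2 to 19.3 ± 4.17 CPM in grafts, against 39.0 ± 2.15 CPM in ear. Of 27 endothelial genes 19 rose and 1 fell (median 0.792; 3 fell without graft replicate 3). Sox18, a factor of new vessels, rose 2.72-fold, and the junction gene Esam 2.28-fold. Mmrn1, strong in lymphatic endothelium, fell to 20.0 ± 5.50 CPM in grafts, against 47.2 ± 2.51 CPM in ear.

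Genes of muscle, fat and nerve were lower in the grafts. All 24 skeletal muscle genes fell (median -3.39, against 22.0% of all genes lower). Summed over the list they held 644 to 2170 CPM in grafts, against 8480 to 15100 CPM in ears, with graft replicate 2 the highest graft. The 8 genes with the largest falls by the naming rule held 5 genes of the muscle contractile apparatus or its kinases, Myl2, Myh7, Myl3, Mylk4 and Myh6, with Ckmt2, the sarcomeric mitochondrial creatine kinase, Rpl3l, a ribosomal protein of striated muscle, and the potassium channel gene Kcnc1. Myl2 (Entrez 17906, chromosome 5), a myosin light chain of slow muscle and heart, was read at 0, 0.146 and 0.477 CPM in grafts, against 41.3, 27.3 and 66.9 CPM in ears (-7.62 ± 0.67, adjusted p = 4.54e-08). The slow myosin heavy chain Myh7 stood at 0, 0.730 and 1.79 CPM in grafts and at 96.7, 60.1 and 150 CPM in ears, and the light chain Myl3 at 0.379, 0.292 and 0.477 CPM in grafts and at 17.1, 8.48 and 18.9 CPM in ears. Myh6, Mylk4, Ckmt2, Kcnc1 and Rpl3l fell 32.1-fold to 61.4-fold. Of the list itself, myotilin (Myot) fell 17.8-fold and the muscle enolase gene Eno3 11.0-fold.

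Of 23 adipocyte genes none rose and 16 fell (median -1.51). Adiponectin (Adipoq), a fat cell hormone, was read at 6.32, 18.0 and 11.0 CPM in grafts, against 58.1, 81.5 and 69.9 CPM in ears (-2.59 ± 0.64, adjusted p = 0.00259). The insulin-regulated glucose transporter gene Slc2a4, also made in muscle, fell 7.17-fold, and Acsl1, which activates fatty acids, 1.75-fold. Of 20 Schwann cell and nerve genes 2 rose and 9 fell (median -0.620). Those that fell included genes of myelinating Schwann cells: Drp2 stood at 13.0 ± 1.41 CPM in grafts and 71.0 ± 3.49 CPM in ear, and Ncmap at 2.45 ± 0.519 CPM in grafts and 21.4 ± 0.755 CPM in ear. The 2 that rose were Gap43, found in growing axons and unmyelinated Schwann cells, at 14.3, 11.7 and 8.24 CPM in grafts and 4.82, 3.45 and 5.01 CPM in ears, and the receptor gene Gfra3 at 6.47 ± 2.33 CPM in grafts and 2.38 ± 0.765 CPM in ear. Sox10, which Schwann cells and melanocytes share, did not pass at 14.2 CPM in grafts and 17.1 CPM in ear.

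Ear cartilage genes varied between the grafts. Aggrecan (Acan) was read at 85.5, 56.5 and 165 CPM in grafts and at 151, 154 and 194 CPM in ears, with overlap (-0.69 ± 0.83, adjusted p = 0.504), and Col2a1 ranged from 57.8 to 263 CPM in grafts and from 35.5 to 53.8 CPM in ears (adjusted p = 0.145). Of 19 tested cartilage genes 1 rose and 6 fell (median -0.693; -0.405 without graft replicate 2 and -1.30 without replicate 3), and 3 fell when graft replicate 1 or 2 or either of 2 ears was left out. Sox6 fell to 19.4 ± 1.47 CPM in grafts, against 52.1 ± 8.05 CPM in ear, and Snorc, a chondrocyte proteoglycan, to 3.58 ± 2.39 CPM in grafts, against 19.9 ± 3.96 CPM in ear. Sox9, which is also a follicle factor, stood at 87.7 ± 13.5 CPM in grafts and 65.9 ± 1.34 CPM in ear, a call (adjusted p = 0.0394) lost in 9 of 12 alternatives. Of 13 melanocyte genes 8 rose and none fell (median 1.23), with graft replicate 2 highest: tyrosinase (Tyr) was read at 8.60, 19.0 and 4.89 CPM in grafts, against 1.23, 2.63 and 1.69 CPM in ears, and the pigment transporter gene Slc45a2 rose 9.16-fold. Without that replicate 3 of the 13 rose.

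Genes of myeloid cells were higher in the grafts. Of 28 macrophage and monocyte genes 23 rose and none fell (median 1.66). The lysosomal proteases Ctsd and Ctsb rose to 1410 ± 132 and 1650 ± 213 CPM in grafts, against 629 ± 49.8 and 512 ± 7.28 CPM in ear. Of 17 tested genes of classical activation 8 rose and none fell (median 1.45). The costimulatory gene Cd80 rose 4.41-fold, and the acute phase gene Saa3 was read at 31.6, 9.79 and 58.7 CPM in grafts, against 0.0818, 0.150 and 0.0677 CPM in ears (8.22 ± 1.05, adjusted p = 4.83e-06). Of 20 genes tied to alternative activation 6 rose and 2 fell (median 0.449), a share of rises near the 30.6% over all genes. The beta-glucan receptor gene Clec7a rose 5.15-fold and the interleukin 4 receptor gene Il4ra 3.14-fold, while the lectin gene Mgl2 fell to 28.1 ± 11.5 CPM in grafts, against 83.2 ± 3.84 CPM in ear. Arginase (Arg1) was read at 24.4, 23.1 and 42.0 CPM in grafts, against 6.13, 8.63 and 7.18 CPM in ears (2.03 ± 0.64, adjusted p = 0.0131, and 0.0712 without graft replicate 3). The scavenger receptor gene Cd163, of resident macrophages, stood at 26.7, 19.3 and 56.2 CPM in grafts and at 68.3, 65.1 and 53.3 CPM in ears, with overlap (adjusted p = 0.138, and 0.0272 without graft replicate 3).

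Neutrophil-associated genes were higher in the grafts. Of 27 genes listed 19 were tested, and 17 rose and none fell. The fitted median of 5.03 became 3.82 when the 3 genes with no ear count were set at their bound (3 counts over the 3 ears). Those 3 genes passed the filter on low counts through groups other than C57 ear. Stfa3 (Entrez 20863, chromosome 16), a cystatin gene of this list, was read at 207, 204 and 172 CPM in grafts, against 1.72, 1.8 and 3.72 CPM in ears (6.30 ± 0.43, adjusted p = 5.38e-09). The granulocyte colony-stimulating factor receptor gene Csf3r was read at 24.8, 18.0 and 34.7 CPM in grafts, against 2.13, 1.73 and 2.50 CPM in ears. The 2 genes differed elsewhere. Stfa3 averaged 275 ± 102 CPM in E7 ear and 13.9 ± 6.13 CPM in C57 grafts at 28 dpg. Csf3r averaged 8.48 ± 1.81 CPM in E7 ear and 17.6 ± 2.27 CPM at 28 dpg (adjusted p = 0.089 against 14 dpg). Which cells made Stfa3 was not tested. Fpr1, a receptor for bacterial peptides, was at least 30.2-fold higher in the grafts, with 52 counts in the grafts and 0 in the ears. The Stfa genes are near copies of each other. The granule genes Elane, Mpo, Camp and Ngp and the surface marker Ly6g averaged 0.294 CPM or less in both groups and were not tested. Lcn2 was tested and did not pass, at 2.21 CPM in grafts and 2.66 CPM in ear. Of 30 tested chemokine genes 17 rose and 4 fell (median 1.54). Ccl3 and Ccl4, which draw monocytes and lymphocytes, rose to 4.83 ± 2.46 and 2.56 ± 0.604 CPM in grafts, against 0.192 ± 0.134 and 0.132 ± 0.173 CPM in ear, and Ccl21a, which guides dendritic cells into lymphatic vessels, fell to 43.2 ± 6.00 CPM in grafts, against 105 ± 6.50 CPM in ear. Xcl1 fell to 1.16 ± 0.146 CPM in grafts, against 3.84 ± 0.558 CPM in ear.

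Of 24 T cell genes 7 rose and 5 fell (median 0.409), near the 30.6% higher and 22.0% lower over all genes, with 4 rising when graft replicate 1 or 3 was left out and 3 falling without replicate 2. Trac, the alpha chain constant region of the T cell receptor, was read at 3.54, 1.61 and 2.63 CPM in grafts and at 1.39, 1.05 and 1.02 CPM in ears (adjusted p = 0.0225), a call lost without graft replicate 1 or 3 or without either of 2 ears (largest adjusted p = 0.161). Trdc, the delta chain of gamma-delta T cells, fell to 7.10 ± 2.07 CPM in grafts, against 19.5 ± 2.36 CPM in ear, and Cd3g to 6.46 ± 1.64 CPM in grafts, against 14.0 ± 1.57 CPM in ear. Il7r and Cd5 rose 1.86-fold and 1.72-fold. Of 17 regulatory and checkpoint genes 8 rose and 2 fell (median 0.730; 5 rose without graft replicate 3); Foxp3, the factor of regulatory T cells, stood at 4.42, 3.36 and 3.70 CPM in grafts and at 0.572, 1.65 and 1.22 CPM in ears, and Icos rose 3.06-fold. Ikzf2 fell 1.52-fold. Of 15 tested cytotoxic genes 7 rose and none fell (median 1.13). With a fit of these 6 libraries alone 7 were tested, and 2 rose and 2 fell (median -0.379). Without graft replicate 3, 5 rose and 2 fell. Those that rose included Gzma at 1.59 ± 0.767 CPM in grafts and 0.0996 ± 0.0874 CPM in ear, and Ncr1 with 31 counts in the grafts and 2 in the ears. Prf1 (1.96 CPM in grafts, 3.57 CPM in ear), Nkg7, Klrd1 and Klrk1 averaged lower in grafts without passing. Of 15 tested B and plasma cell genes 4 rose and none fell (median 0.862), a share of rises near that of all genes. Only 1 or 2 rose without graft replicate 1 or 3 or either of 2 ears. Cd22 stood at 8.67 ± 1.93 CPM in grafts and 0.594 ± 0.125 CPM in ear.

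Mast cell genes were lower. Of 16 listed 2 rose and 10 fell (median -1.05). Mrgprb2, the mast cell receptor for peptides, was read at 3.41, 4.67 and 3.34 CPM in grafts, against 16.1, 13.1 and 13.4 CPM in ears (-1.90 ± 0.28, adjusted p = 1.12e-05), and the factor gene Gata2 at 7.58, 6.43 and 8.47 CPM in grafts, against 20.6, 19.5 and 22.9 CPM in ears. Of 20 dendritic and Langerhans cell genes 7 rose and 3 fell (median 0.346), against 30.6% of all genes higher and 22.0% lower. Fscn1 and Itgax rose 4.57-fold and 5.77-fold, and Ccr7 was also among the genes that rose. The list members Cd83, Lamp3, Zbtb46 and Flt3 did not pass (adjusted p = 0.0569, 0.236, 0.694 and 0.465). Cd207, which encodes the Langerhans cell lectin langerin, fell to 10.6 ± 2.02 CPM in grafts, against 23.6 ± 1.97 CPM in ear, and Cd209a fell 1.58-fold.

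Interferon response genes rose as a block: 33 of 36 rose and none fell (median 1.53). The antiviral gene Oas1a (Entrez 246730, chromosome 5) was read at 13.3, 17.4 and 22.2 CPM in grafts, against 1.72, 1.28 and 1.76 CPM in ears. Its relative Oasl2 was read at 35.6, 63.8 and 64.3 CPM in grafts, against 5.81, 5.48 and 7.38 CPM in ears. Graft replicate 1 was the lowest graft in both. Of 18 genes of the MHC class I pathway 11 rose and none fell (median 0.546; 7 rose without graft replicate 3), with H2-D1 at 660 ± 88.7 CPM in grafts and 423 ± 50.7 CPM in ear. Of 14 class II genes 4 rose and none fell (median 0.0249), a share of rises near the 30.6% over all genes. However, 3 fell without graft replicate 3, 5 fell with a fit of these 6 libraries alone, and the median turned negative in 8 of 12 alternatives. Those named, Lgmn and Ctss, are lysosomal proteases that macrophages also make. Of 22 complement genes 15 rose and none fell (median 1.11; 9 rose without graft replicate 3), with C1s1 up 3.41-fold and the receptor gene C3ar1 up 3.55-fold. Of 15 tested genes of type 2 responses 6 rose and 2 fell (median 0.288), and 3 rose with a fit of these 6 libraries alone. The cytokine genes Il13 (6 counts in grafts, 19 in ears), Il33 and Tslp did not pass. Il4, Il5 and Il25 had few counts and were not tested. Of those named next, Areg is also on the wound keratinocyte list and Postn on the matrix list. Amphiregulin (Areg), an epidermal growth factor, was read at 6.95, 11.1 and 10.3 CPM in grafts, against 0, 0 and 0.406 CPM in ears, periostin (Postn) rose 2.83-fold, and Ccl24 fell 3.42-fold.

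Genes of oxidative phosphorylation were lower in the grafts. Of 26 nuclear genes of oxidative phosphorylation none rose and 18 fell (median -0.305; Ndufb9 and Sdha fell 1.63-fold and 1.5-fold), and all 13 mitochondrially encoded genes fell (median -0.971). Muscle, rich in mitochondria, was lower in the same libraries; its part in this was not tested. Of 25 glycolysis and hypoxia genes 9 rose and 4 fell (median 0.209, and 5 rose without graft replicate 3), against 30.6% of all genes higher and 22.0% lower. Pgam1 and Eno1 rose 2.05-fold and 2.18-fold and Bnip3 fell 2.38-fold. Of 20 immediate early and heat shock genes, which respond to handling, 5 rose and 4 fell (median 0.172, and 3 rose without graft replicate 2), near the shares over all genes. Fosb stood at 3.46 CPM in grafts and 21.9 CPM in ear without passing (adjusted p = 0.0661). Of 6 tested erythroid genes 2 rose and none fell: the anion exchanger gene Slc4a1 had 156 counts in the grafts and 1 in the ears, while the globin gene Hba-a1 ranged from 10.8 to 32.8 CPM in grafts and from 37.5 to 39.3 CPM in ears without passing (adjusted p = 0.144).

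Several Hox genes of the Hoxa, Hoxb and Hoxc clusters were read in the grafts and at or near 0 in ear. Hoxc8 (Entrez 15426, chromosome 15, 102990539 to 102994275) was read at 10.5, 15.9 and 7.76 CPM in grafts, 257 counts in all, against no count in the 3 ears, at least 149-fold higher taking 3 counts over the ears as the floor. Hoxc9 had 75 counts in the grafts and 0 in the ears (at least 43.6-fold), Hoxb8 122 and 0 (at least 70.8-fold), Hoxb7 89 and 0 (at least 51.7-fold), and Hoxa10 47 and 0 (at least 27.3-fold). Hoxc6 had 189 counts in the grafts and 1 in the ears. Of 25 tested position genes, Hox genes with Tbx5 and Tbx15, 21 rose and 2 fell, and 12 of 18 rose with a fit of these 6 libraries alone. The fitted median of 4.04 became 3.86 with the 8 tested genes without ear counts at their bound, and those 8 passed the filter on low counts through groups other than C57 ear. The Hox genes beyond Hoxc8, Hoxc9 and Hoxa4 were chosen for naming after their values were seen.

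The 4 Hox clusters differed. In the Hoxa, Hoxb and Hoxc clusters the paralogs from 5 to 10 stood at or near 0 in ear and at 0.771 to 11.4 CPM on average in the grafts. In the Hoxd cluster Hoxd8 and Hoxd9 did not pass, at 9.03 ± 1.70 and 8.91 ± 0.519 CPM in grafts and 9.26 ± 0.777 and 9.25 ± 1.34 CPM in ear (adjusted p = 0.882 and 0.848), and Hoxd4 rose 2.17-fold. Of 6 tested head-end paralogs (1 to 3) 3 rose and 2 fell, against 30.6% of all genes higher and 22.0% lower. Hoxb2, Hoxb3 and Hoxd3 rose, to 8.46, 12.0 and 3.15 CPM on average in grafts, against 4.44, 6.63 and 1.35 CPM in ear. Hoxa3 did not pass (adjusted p = 0.0628). Hoxa2, 1 of the 2 that fell, stood at 7.43 ± 2.63 CPM in grafts, against 11.9 ± 1.28 CPM in ear (adjusted p = 0.0452). Hoxa4, at 0.538 ± 0.293 CPM in grafts and 1.27 ± 0.491 CPM in ear (adjusted p = 0.0322), overlapped between groups and lost its call in 4 of 11 alternatives, and Tbx15 (57.2 ± 4.22 CPM in grafts, 79.6 ± 13.6 CPM in ear, adjusted p = 0.0395) lost it in 3 of 12. Of the paralogs 11 to 13 Hoxc13 alone was tested; its follicle role is given above. Graft replicate 2 was the highest and replicate 3 the lowest graft for Hoxb6, Hoxb7, Hoxb8 and Hoxc8. Of 3 tested hind-limb genes Pitx1 rose, at 2.28, 2.34 and 3.22 CPM in grafts and 0.245, 0.451 and 0.203 CPM in ears, and Hoxd10 and Tbx4 did not pass. At 28 dpg Pitx1 averaged 0.403 ± 0.622 CPM (log2 fold change against 14 dpg -2.82, adjusted p = 0.0194). It averaged 1.90 ± 0.704 CPM in E7 ear.

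**Figure D3:**
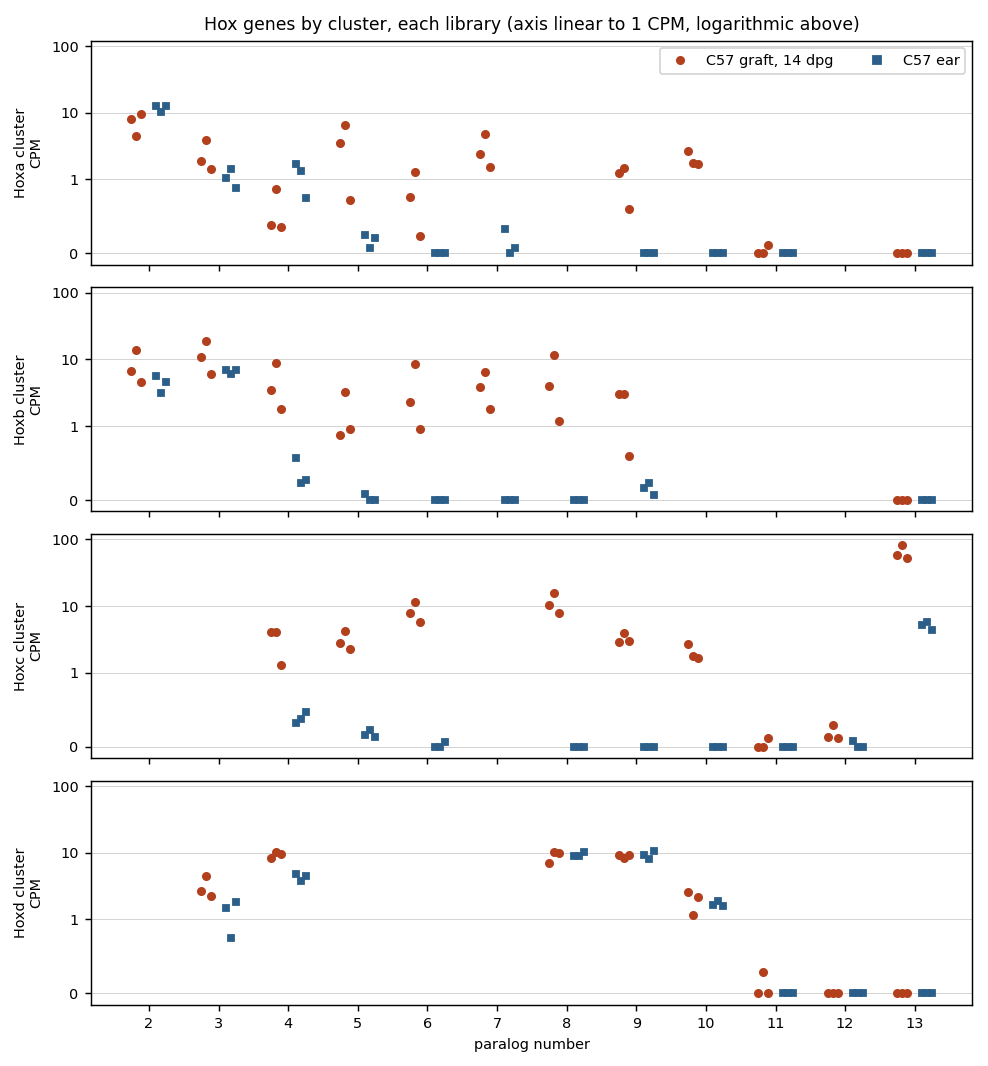
CPM of Hox genes of paralogs 2 to 13 (x axis, paralog number; rows, Hoxa to Hoxd clusters) in 3 C57 grafts at 14 dpg (circles, left) and 3 C57 ears (squares, right); the axis is linear to 1 CPM and logarithmic above. Hoxc8 lies between 7.76 and 15.9 CPM in the grafts and at 0 in the ears, and Hoxd8 and Hoxd9 lie together in both.

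The same flow cell held C57 grafts at 28 dpg, so time after grafting could be followed without that difference. The comparison of 28 with 14 dpg shares the 14 dpg grafts with the one above, so its values are given side by side and not as separate support. Between these days 4313 of 16612 genes passed (26.0%), 1595 higher at 28 dpg (9.60%) and 2718 lower (16.4%); 37.0% of the calls were higher, against 52.7% with upper quartile scaling and 48.9% with no filter. With a 2-fold limit 1145 genes passed (6.89%). Follicle genes were lower at 28 dpg for 24 of 26 genes and higher for 1, Cd34. Krt71 averaged 406 ± 161 CPM at 28 dpg and 2900 ± 824 CPM at 14 dpg (log2 fold change -2.84, adjusted p = 0.00206, and 0.0666 with the replicate block), with 0.547 ± 0.518 CPM in ear. Krt81 averaged 49.9 ± 14.9 CPM at 28 dpg and 598 ± 148 CPM at 14 dpg (-3.59, adjusted p = 0.000146). All 25 mitosis genes but 1 were lower at 28 dpg, as were 28 of 31 replication genes, and Mki67 averaged 126 ± 22.4 CPM at 28 dpg and 279 ± 33.4 CPM at 14 dpg. Krt16 averaged 57.4 ± 24.5 CPM at 28 dpg and 954 ± 316 CPM at 14 dpg, with 23.6 ± 3.91 CPM in ear, and Stfa3 13.9 ± 6.13 CPM at 28 dpg and 195 ± 19.2 CPM at 14 dpg.

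Col1a1 averaged 9370 ± 2840 CPM at 28 dpg and 11700 ± 1880 CPM at 14 dpg (adjusted p = 0.454), of 33 matrix genes 2 were higher and 5 lower at 28 dpg, and of 28 macrophage genes 1 was lower. Of 36 interferon response genes 4 were lower at 28 dpg. None of the 25 position genes, a list without Pitx1, was lower, and Hoxc8 averaged 12.9 ± 2.12 CPM at 28 dpg and 11.4 ± 4.15 CPM at 14 dpg (adjusted p = 0.798). MHC class II genes were higher at 28 dpg for 7 of 14, and class I genes for 9 of 18. Of the tissue genes, 20 of 24 muscle, 12 of 23 adipocyte, 13 of 20 Schwann and nerve and 7 of 16 mast cell genes were higher at 28 dpg. Adipoq averaged 57 ± 27.9 CPM at 28 dpg and 11.8 ± 5.86 CPM at 14 dpg (2.28, adjusted p = 0.0145), with 69.8 ± 11.7 CPM in ear; the call was lost in 3 of 13 alternatives, among them without 14 dpg graft replicate 1 and without 28 dpg graft replicate 2 (largest adjusted p = 0.0642). Among single muscle genes, Myl2 averaged 0.246 ± 0.285 CPM at 28 dpg and 0.208 ± 0.245 CPM at 14 dpg, and Myh7 averaged 0.419 ± 0.370 CPM at 28 dpg and 0.840 ± 0.900 CPM at 14 dpg, with 102 ± 45.2 CPM of Myh7 in ear. The fast myosin Myh4 averaged 732 ± 366 CPM at 28 dpg and 49.6 ± 45.8 CPM at 14 dpg, with 1170 ± 380 CPM in ear.

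**Figure D4:**
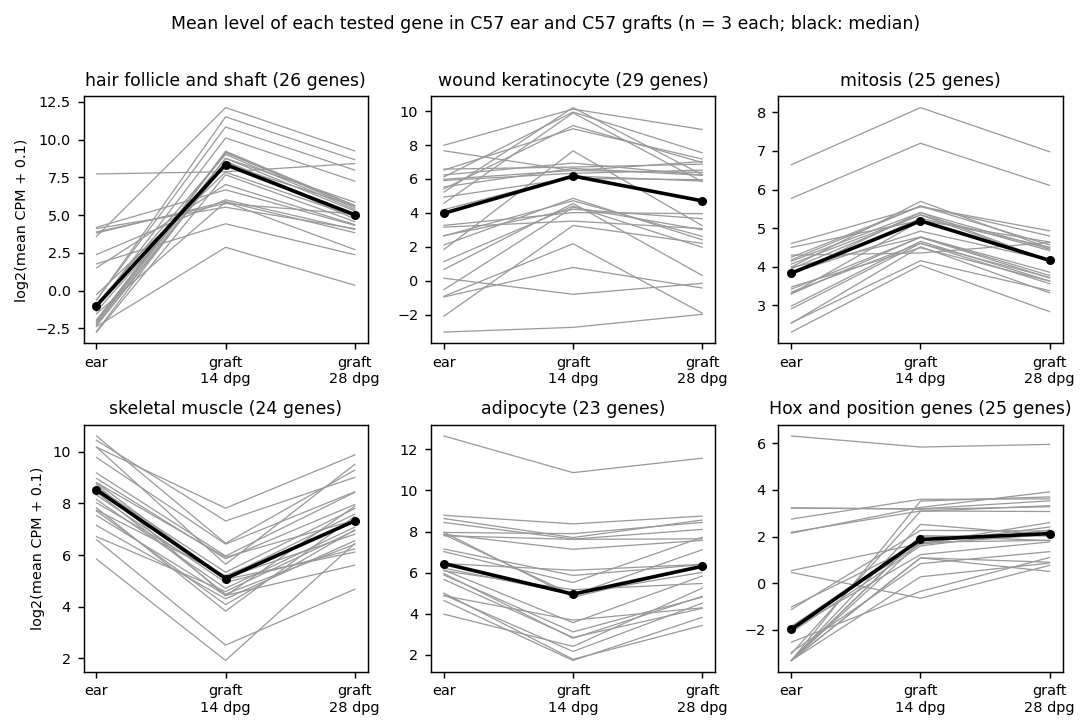
Mean level of each tested gene, log2(CPM + 0.1), in C57 ear, grafts at 14 dpg and grafts at 28 dpg (x axis, n = 3 each) for 6 lists; grey lines are genes and the black line is their median. By the median, hair, wound and mitosis genes peak at 14 dpg, muscle genes are lowest then, and Hox and position genes stay above ear at both days. Hoxa4, Hoxd8, Hoxd9 and Tbx15 average below ear at 14 dpg.

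For the 16 genes of the panel the graft-to-ear change of C57 skin was set against that of E7 skin, which shares the same pair of flow cells, so the flow cell difference falls on both. Over all genes 2098 differed in this test (12.6%), 668 with a higher (4.02%) and 1430 with a lower change in E7 skin (8.61%). Of the panel 3 differed, each with the lower change in E7 skin. Krt16 averaged 3680 ± 388 CPM in E7 grafts and 1310 ± 618 CPM in E7 ear, and its change in E7 skin minus that in C57 skin was -3.85 ± 0.50 on the log2 scale (adjusted p = 5.19e-05). Mki67 averaged 630 ± 35.4 CPM in E7 grafts and 826 ± 48.7 CPM in E7 ear (difference of changes -1.87 ± 0.23, adjusted p = 2.67e-05), and Mmp13 averaged 11.4 ± 3.01 CPM in E7 grafts and 6.17 ± 1.91 CPM in E7 ear (-4.17 ± 0.86, adjusted p = 0.00372). Differences for the other 13 genes, among them Col1a1 and Adipoq, did not pass, which does not show that they were alike. For Hoxc8, also among the 13, the difference could not be estimated (SE 5977), as it stood at 0 CPM in C57 ear and in E7 ear.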

How the data were processed

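The authors deposited raw whole-number counts per Entrez gene, 1 table per library. Trimmomatic was used on both tissues, with bcl2fastq 1.8.4 for ears and FastQC for grafts, and the build was mm10, all per the submitters' processing notes. Per the labels' protocols, RNA came from snap frozen whole tissue and libraries from the TruSeq RNA v2 kit. The aligner, counting program, annotation and strand are not stated in the labels or files, so overlapping antisense genes and near copies are uncertain. Of 27180 rows, 25275 matched the RefSeq GRCm38.p6 table, which gave symbols and positions. The rest held 0.826 to 1.24% of the counts of these 6 libraries; 1 row, the E7 transgene, had 0 to 2 counts in them.

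All 24 libraries (8 groups of 3) were fitted together with edgeR 4.0.16 in R 4.3.3: filterByExpr (minimum count 10, total 15), TMM scaling, robust quasi-likelihood F tests, Benjamini-Hochberg adjustment over 16612 genes (common biological coefficient of variation 0.135). The E7 grafts at 28 dpg and the CD1dKOxE7 grafts (flow cell C374UACXX, lane 2) thus entered the filter, the scaling and the shared spread. Fitted within a group, the coefficient was 0.0825 in C57 ear and 0.129 in C57 grafts at 14 dpg. It was 0.151 and 0.201 in CD1dKOxE7 grafts at 14 and 28 dpg. The SE is the absolute log2 fold change over the square root of F. CPM use TMM-scaled library sizes. The labels do not say whether replicates share an animal or cage, so p-values measure the spread between these libraries. The steps were tested on simulated data. Intervals and floors cover counting error only.

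The members, the 42 gene lists and the panel of 16 genes were chosen with earlier results of these data known. Named genes were the panel, the 8 largest rises and 8 largest falls (past the threshold, at least 1 CPM, at least 4 counts in the lower group, no overlap), and per list 2 members with the smallest adjusted p in its main direction and up to 2 in the other; genes named beside these were chosen after their values were seen. Alternatives were RLE and upper quartile scaling, no filter, a filter of 1 CPM in 3 libraries, DESeq2 1.42.0, the compared groups alone, a 2-fold limit, leaving out each library, and a replicate block. Some genes are not reported here.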

Additional observations from a re-analysis of the deposited data

Results flagged for a closer look

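Between 28 and 14 dpg, on the same flow cell, 20 of 32 genes followed changed past the threshold; values are log2 fold changes, 28 over 14 dpg. Genes higher in 14 dpg grafts than in ear and lower at 28 dpg were Krt6a (-2.40), Krt16 (-4.05), Krt14 (-0.62), Mki67 (-1.14), Acta2 (-0.96) and Timp1 (-0.94). Timp1 lost this call in 6 of 13 alternatives (largest adjusted p = 0.235) and Krt14 in 3 of 13 (0.151), and Krt14 lost its call against ear in 9 of 12. The hair genes Krt71 (-2.84), Krt81 (-3.59), Krtap8-1 (-3.70), Krt33a (-3.52), Krt25 (-2.85), Krt34 (-3.80), Krt73 (-2.92) and Krt35 (-2.77) were lower as well. With the replicate block the calls of Krt71, Krt25, Krt73, Krt35 and Krt33a were lost (adjusted p = 0.0577 to 0.0988). Genes lower in 14 dpg grafts than in ear and higher at 28 dpg were Adipoq (2.28), Rpl3l (4.20), Ckmt2 (3.03), Kcnc1 (1.97), Mylk4 (2.47) and Myh6 (2.28). Mylk4 lost this call in 4 of 13 alternatives (largest adjusted p = 0.0798), Adipoq in 3 (0.0642) and Myh6 in 2 (0.064). These genes were picked on a comparison that shares the 14 dpg grafts.

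The graft-to-ear change differed between E7 and C57 skin for Krt16 (-3.85), Mki67 (-1.87) and Mmp13 (-4.17), as E7 minus C57 on the log2 scale.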

How the results depend on the processing

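Of 1677 values of the 140 named genes under the alternatives for graft against ear, 1620 kept their direction and side of the threshold, 56 of 15 genes lost their call, 1 gained it and none reversed. Calls against ear numbered 8515 with DESeq2 and 8642 with the 6 libraries alone; leaving out 1 library gave 7777 to 7968 calls (3815 to 4647 higher, 3174 to 4005 lower). A 2-fold limit left 3130 calls (1963 higher, 1167 lower) against ear and 1145 (509 higher, 636 lower) between days, as fewer genes can pass. Leaving out 1 library gave 3119 to 3677 calls between days (1138 to 1820 higher, 1654 to 2280 lower, the 1654 without 14 dpg graft replicate 1; the cause was not tested). Between days, 382 of 410 values of 32 genes kept their call, 23 lost it and 5 gained it; for E7 minus C57, 269 of 272 kept it and 3 gained it. Scaling moved the median of all genes by -0.077 to 0.074 on the log2 scale (no filter, -0.088).

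Over the alternatives 25 follicle, 24 mitosis and 24 muscle genes passed each time, interferon response genes 30 to 34 and trunk Hox and position genes 12 to 21, the 12 of 18 tested with the 6 libraries alone. For follicle genes with few ear counts, the limit of the filter given above holds in the filtered alternatives too. No paired analysis of graft against ear was possible because ear libraries carry mouse numbers that grafts do not. Between days, the deviations of same-numbered grafts correlated at -0.033, 0.277 and 0.096, against -0.281 to 0.203 for grafts of different numbers. With so few pairs these values cannot decide whether the numbers pair the grafts. With the replicate block 4106 genes passed (1967 higher, 2139 lower). With 3 libraries a group and no shared flow cell, genes near a few counts and small folds are the least certain.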

Other observations

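The genes below were chosen after their values were seen and were not part of the lists or the naming rule. Keratin-associated protein genes, taken by symbol, were read with the hair keratins. Over 55 rows their summed level was 4330 to 8390 CPM in 14 dpg grafts, against 25.4 to 31.6 CPM in ear, and 379 to 630 CPM in 28 dpg grafts. Of the 53 that passed the filter on low counts, 42 had 3 or fewer counts over the 3 ears and passed through groups other than C57 ear, so no count of calls is given. Many are near copies of each other. Padi3, which citrullinates trichohyalin, averaged 205 ± 61.6 CPM in 14 dpg grafts and 0.177 ± 0.165 CPM in ear, and S100a3, of the hair cuticle, 464 ± 53.8 CPM in grafts and 5.80 ± 0.865 CPM in ear.

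The non-coding RNAs Meg3, Rian and Mirg, neighbours in the imprinted Dlk1-Dio3 region of chromosome 12, were higher in the grafts than in ear. Meg3 averaged 644 ± 71.8 CPM in 14 dpg grafts and 108 ± 18.6 CPM in ear (log2 fold change 2.57, adjusted p = 2.13e-07), with 644 CPM at 28 dpg. Rian averaged 184 ± 8.92 CPM in 14 dpg grafts and 18.8 ± 1.38 CPM in ear, with 186 CPM at 28 dpg, and Mirg 11.7 ± 1.72 CPM in grafts and 1.37 ± 0.579 CPM in ear. In E7 skin Meg3 averaged 355 CPM in 14 dpg grafts and 39.2 CPM in ear. All grafts and ears differ in flow cell, so tissue and flow cell cannot be told apart here.

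The macrophage elastase gene Mmp12 was read at 121, 204 and 238 CPM in 14 dpg grafts, against 3.03, 2.85 and 2.44 CPM in ears, and averaged 212 CPM at 28 dpg (adjusted p = 0.809 against 14 dpg). Angptl7 and Myoc, secreted proteins, averaged 8.14 ± 6.67 and 31.1 ± 12.6 CPM in 14 dpg grafts and 218 ± 25.1 and 672 ± 48.0 CPM in ear. The slow troponin gene Tnnt1 averaged 6.48 ± 3.83 CPM in 14 dpg grafts, 103 ± 34.9 CPM in ear and 6.69 CPM at 28 dpg.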
